A study of Mus musculus with 3 samples.

Results

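A set of 10 genes that mark kinds of endothelium in the mouse lung was followed, 6 for blood capillaries (Car4, Apln, Aplnr, Gpihbp1, Emcn and Plvap) and 4 for lymphatic vessels (Prox1, Lyve1, Mmrn1 and Reln), out of 48709 genes counted. They were taken by symbol, and each symbol matched 1 gene. The only group is wild type (WT), with 3 RNA-seq libraries of sorted lung cells that the labels call smooth muscle. The mice carried smooth muscle actin creERT2, a Cre recombinase that acts once tamoxifen is given, and tdTomato, a red fluorescent protein. Tamoxifen was injected at 75 mg/kg on each of 10 days into mice aged 8 weeks, and lungs were taken 2 months later. The actin promoter names the cells the Cre was meant to act in, while neither the gate of the sort nor the number of animals behind a library is stated by the labels. The labels give no second condition, so the account concerns levels and how they differ between the 3 libraries, a spread that may be technical.

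Lung alveoli are covered by a capillary net of 2 known endothelial kinds. Aerocytes, also called Car4-high or aCap cells, are large, thin cells that lie against the air space, and in the mouse they express Car4, Apln and Ednrb. General capillary (gCap) cells express Aplnr, Gpihbp1 and Plvap and serve as the progenitors of the net. The ligand apelin and its receptor thus mark different neighbouring cells. Lymphatic vessels drain fluid and immune cells, and their endothelium is set apart by the transcription factor Prox1.

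Library depth was 16877297 to 18896263 counts, given below per 1000000 counts of the library (CPM). A gene with 0 counts could thus have a level of up to 3 counts, or 0.159 to 0.178 CPM, for counting error only. Of 10 contractile smooth muscle genes, 9 had a mean CPM of at least 1 and 7 of at least 10. Acta2, smooth muscle actin, had 13.2 ± 3.36 CPM and Myh11, smooth muscle myosin, 24.3 ± 6.82 CPM (SD, n = 3), whereas Cnn1, calponin, had 0, 7 and 5 counts in WT libraries 1, 2 and 3. The 11 pan-endothelial genes other than Emcn were all detected, at a summed 788, 445 and 546 CPM in libraries 1, 2 and 3. They were led by the adhesion molecule Pecam1 at 206 ± 29.2 CPM and the junction cadherin Cdh5 at 176 ± 63.1 CPM.

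All 10 markers were present in each of the 3 libraries, with 31 to 1121 counts per gene and library. All 10 differed between libraries by more than counting error in a chi-square test of homogeneity with Benjamini-Hochberg adjustment. The share over all 23317 genes tested was 70.0%, and 72.5% among the 8660 genes with total counts in the members' range, so this count does not set the markers apart. The size of their variation was above the typical value. Between the highest and the lowest library the markers differed by 1.67-fold to 4.47-fold (median 2.49-fold, library sizes scaled by TMM), against a median of 1.43-fold and an upper quartile of 1.77-fold in those 8660 genes, and the smallest span was that of Car4.

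**Figure D1:**
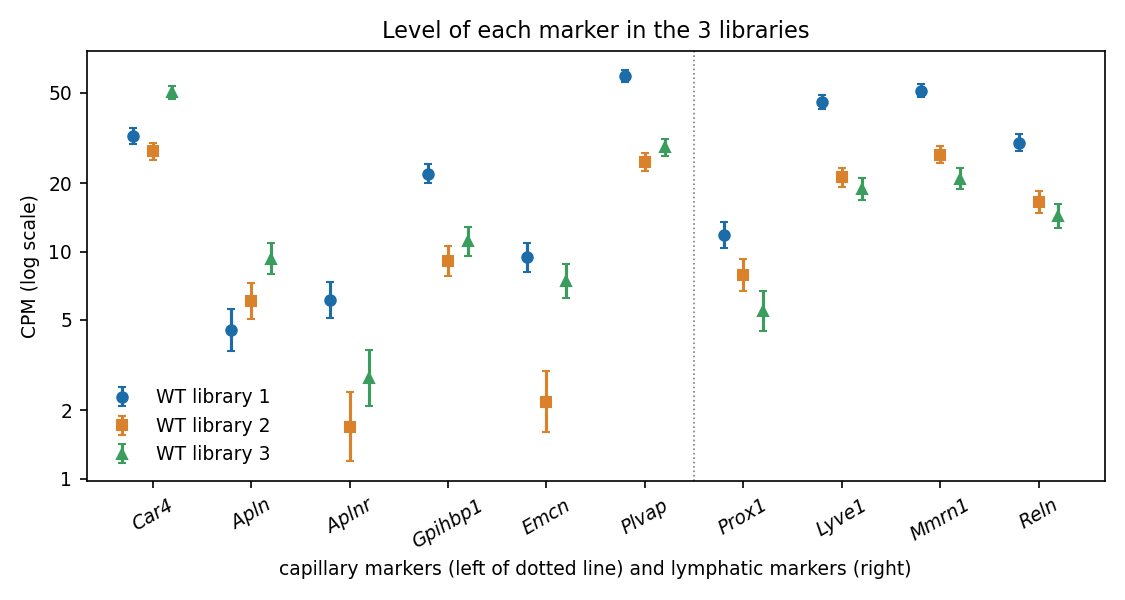
CPM of each marker (vertical log axis) in WT libraries 1, 2 and 3, with capillary markers left and lymphatic markers right of the dotted line; bars are 95% Wilson intervals, which cover counting error only. Car4 and Apln were highest in library 3, and the other 8 markers were highest in library 1.

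The markers fell into 3 patterns. The aerocyte markers Car4 and Apln were highest in library 3, at 50.4 and 9.30 CPM. Aplnr, Gpihbp1, Plvap and Emcn were highest in library 1 and lowest in library 2. For Aplnr, Gpihbp1 and Plvap, libraries 2 and 3 did not differ past the threshold when tested without library 1. All 4 lymphatic markers were highest in library 1 and lowest in library 3. Each marker kept its order of libraries with library totals, TMM factors, DESeq2 size factors and protein-coding totals. Among all genes tested, 12.2% were called with the order of the lymphatic markers, 15.3% with the order library 1 over 3 over 2, 28.2% with the highest level in library 1 and 19.9% with the highest level in library 3. In bulk samples fewer cells of a type and less RNA per cell cannot be told apart.

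Car4, a carbonic anhydrase anchored on the cell surface that interconverts carbon dioxide and bicarbonate (ENSMUSG00000000805, chromosome 11, 84957786 to 84966044, plus strand), had 32.3, 27.7 and 50.4 CPM in WT libraries 1, 2 and 3. Libraries 1 and 2 lay closer together and library 3 stood above both (adjusted p = 1.1e-19 between libraries). Without library 3, Car4 still differed past the threshold between libraries 1 and 2 (adjusted p = 0.00395). Apln, the precursor of the secreted peptide apelin (ENSMUSG00000037010, chromosome X, 48025146 to 48034853, minus strand), had 4.50, 6.05 and 9.30 CPM. Its order was library 3 over 2 over 1, with 157, 111 and 85 counts (adjusted p = 4.6e-05), but without library 3 the remaining libraries no longer differed past the threshold (adjusted p = 0.107). Car4 exceeded Apln by 7.19, 4.58 and 5.41 times in raw counts in the 3 libraries. The order library 3 over 1 over 2 that Car4 showed was called in 6.57% of all genes.

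The start-site windows of Car4 and Apln are printed because these are the markers that were highest in library 3. They run from 250 bases before to 50 after the start annotated by RefSeq (GRCm38.p6), on the strand of the gene. Capitals mark matches to CNGGAA on either strand, a form of the core that ETS factors, a family active in endothelium, can bind; in Car4 the 2 matches overlap.
Car4, chr11:84957504-84957803, plus strand: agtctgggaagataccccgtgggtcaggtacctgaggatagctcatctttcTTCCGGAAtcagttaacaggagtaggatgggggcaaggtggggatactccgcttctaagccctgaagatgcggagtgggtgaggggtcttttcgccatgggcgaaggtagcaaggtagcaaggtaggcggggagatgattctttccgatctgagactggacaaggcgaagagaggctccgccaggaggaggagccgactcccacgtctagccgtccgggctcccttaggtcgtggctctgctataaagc
Apln, chrX:48034804-48035103, minus strand: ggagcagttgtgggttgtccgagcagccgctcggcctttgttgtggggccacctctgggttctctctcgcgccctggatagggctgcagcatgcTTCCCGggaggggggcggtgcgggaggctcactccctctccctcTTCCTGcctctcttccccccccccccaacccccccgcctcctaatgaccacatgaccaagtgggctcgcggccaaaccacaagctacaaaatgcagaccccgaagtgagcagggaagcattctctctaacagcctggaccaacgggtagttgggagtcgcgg
The windows had a GC content of 57.3% and 64.0% for Car4 and Apln, against a median of 52.7% over 32851 windows, and each held 15 CpG dinucleotides, against a median of 7. A TATAAA match, searched on both strands, occurred in the Car4 window, as in 13.6% of all windows, and none in that of Apln. The Car4 match lies at the end of the window, after the annotated start.

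Aplnr, the G protein-coupled receptor of apelin (ENSMUSG00000044338, chromosome 2, 85136225 to 85139923, plus strand), had 6.14, 1.69 and 2.78 CPM in libraries 1, 2 and 3. Library 1 was the high one (adjusted p = 1.4e-13), and libraries 2 and 3 rested on 31 and 47 counts with Wilson intervals of 1.19 to 2.40 and 2.09 to 3.70 CPM. Its mean was 3.54 ± 2.32 CPM (SD, n = 3), and 2.24 CPM without library 1. Gpihbp1 binds lipoprotein lipase and carries it to the capillary lumen (ENSMUSG00000022579, chromosome 15, 75596628 to 75599481, plus strand). It had 22.1, 9.10 and 11.1 CPM, again with library 1 apart (adjusted p = 2.4e-32). Plvap, which forms the diaphragms of endothelial caveolae and fenestrae (ENSMUSG00000034845, chromosome 8, 71497765 to 71511752, minus strand), had 59.3, 24.7 and 28.8 CPM (adjusted p = 2.2e-89). It overlaps Gtpbp3 on the opposite strand, which had 121, 153 and 174 counts, so that some reads may be uncertain if strand was not used. Without library 1, none of these 3 differed past the threshold between libraries 2 and 3, with adjusted p of 0.143 for Aplnr, 0.426 for Gpihbp1 and 0.441 for Plvap.

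Emcn, endomucin, a mucin-like surface glycoprotein of capillaries and veins (ENSMUSG00000054690, chromosome 3, 137341067 to 137432185, plus strand), had 9.42, 2.18 and 7.41 CPM in libraries 1, 2 and 3. Here library 2 was the low one, with 40 counts against 178 and 125, a 4.47-fold span with TMM scaling that was the widest of the 10 markers (adjusted p = 3.9e-18). Its ratio to Plvap in raw counts was 0.159, 0.0881 and 0.257, and the 95% exact intervals of the 3 ratios did not overlap.

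Ratios of markers inside a library do not depend on library size. Plvap to Gpihbp1 stayed at 2.69, 2.72 and 2.6 in libraries 1, 2 and 3, with exact intervals of 2.40 to 3.02, 2.27 to 3.27 and 2.19 to 3.09, although Plvap differed by 2.40-fold and Gpihbp1 by 2.43-fold in CPM between libraries. Car4 to Gpihbp1, the aerocyte to general capillary ratio, was 1.47, 3.04 and 4.55, with intervals of 1.29 to 1.66, 2.55 to 3.65 and 3.88 to 5.35 that did not overlap. Ligand to receptor, Apln to Aplnr, was 0.733 in raw counts in library 1, with an interval of 0.547 to 0.978. It was 3.58 and 3.34 in libraries 2 and 3, with intervals of 2.39 to 5.52 and 2.40 to 4.73. These intervals do not correct for gene length. Per kilobase of exon, Apln to Aplnr was 0.861, 4.21 and 3.92 in libraries 1, 2 and 3. On the log2(CPM + 1) scale the mean ratios were 1.35 ± 0.04 for Plvap to Gpihbp1, 1.38 ± 0.79 for Car4 to Gpihbp1 and 0.82 ± 1.04 for Apln to Aplnr (SD, n = 3), and the last was within its SD of 0. Without library 1 the mean of Apln to Aplnr was 1.42.

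Prox1, the homeobox factor that sets lymphatic identity (ENSMUSG00000010175, chromosome 1, 190118035 to 190170714, minus strand), had 11.9, 7.90 and 5.45 CPM in libraries 1, 2 and 3 (adjusted p = 1.9e-12). Lyve1, a hyaluronan receptor (ENSMUSG00000030787, chromosome 7, 110850607 to 110863239, minus strand), had 45.6, 21.2 and 18.9 CPM (adjusted p = 4.7e-72). For both genes library 1 was highest and library 3 lowest. Mmrn1, multimerin, an extracellular protein of platelets and endothelium (ENSMUSG00000054641, chromosome 6, 60924976 to 60989378, plus strand), had 51.2, 26.7 and 21.0 CPM (adjusted p = 2.7e-74). Reln, reelin, a large secreted glycoprotein (ENSMUSG00000042453, chromosome 5, 21884454 to 22344702, minus strand), had 30.2, 16.5 and 14.3 CPM (adjusted p = 1.5e-35). These 2 followed the same order, and all 4 differed past the threshold also when any 1 library was left out. The antisense genes overlapping Prox1 had 1 count each, and the antisense genes overlapping Reln at most 11 counts in a library.

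The lymphatic markers were also set against each other. Over Prox1, in raw counts, Lyve1 stood at 3.85, 2.69 and 3.47, Mmrn1 at 4.32, 3.39 and 3.85 and Reln at 2.55, 2.09 and 2.63 in libraries 1, 2 and 3. The exact intervals of Mmrn1 to Prox1 overlapped in the 3 libraries, as did those of Reln to Prox1, whereas Lyve1 to Prox1 was lower in library 2 (2.22 to 3.28) than in library 1 (3.32 to 4.48). Mmrn1 to Lyve1, a pair added after the values were seen, was 1.12, 1.26 and 1.11 in raw counts, with overlapping intervals. None of these ratios corrects for gene length. Per kilobase of exon, Mmrn1 to Lyve1 was 0.558, 0.626 and 0.552 and Reln to Prox1 0.901, 0.739 and 0.930 in libraries 1, 2 and 3. Lyve1 to Prox1 and Mmrn1 to Prox1 stayed above 1.

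Start-site windows of 3 lymphatic markers are shown because these genes shared 1 order of libraries while their windows differ widely in composition. Strand, position and capitals are as for Car4 and Apln, and the upstream of the 2 RefSeq starts of Prox1 is given.
Prox1, chr1:190170778-190171077, minus strand: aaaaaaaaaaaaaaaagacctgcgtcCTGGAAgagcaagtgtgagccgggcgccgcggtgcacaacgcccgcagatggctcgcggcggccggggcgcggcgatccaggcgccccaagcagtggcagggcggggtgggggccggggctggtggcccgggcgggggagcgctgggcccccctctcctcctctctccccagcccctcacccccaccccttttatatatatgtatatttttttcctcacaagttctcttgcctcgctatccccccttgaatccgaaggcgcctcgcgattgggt
Mmrn1, chr6:60944067-60944366, plus strand: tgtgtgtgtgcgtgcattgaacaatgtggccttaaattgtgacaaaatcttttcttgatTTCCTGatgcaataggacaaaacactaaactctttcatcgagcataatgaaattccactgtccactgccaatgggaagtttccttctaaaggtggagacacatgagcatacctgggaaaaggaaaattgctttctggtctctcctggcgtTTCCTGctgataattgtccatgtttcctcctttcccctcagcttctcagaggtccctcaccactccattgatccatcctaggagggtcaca
Reln, chr5:22344656-22344955, minus strand: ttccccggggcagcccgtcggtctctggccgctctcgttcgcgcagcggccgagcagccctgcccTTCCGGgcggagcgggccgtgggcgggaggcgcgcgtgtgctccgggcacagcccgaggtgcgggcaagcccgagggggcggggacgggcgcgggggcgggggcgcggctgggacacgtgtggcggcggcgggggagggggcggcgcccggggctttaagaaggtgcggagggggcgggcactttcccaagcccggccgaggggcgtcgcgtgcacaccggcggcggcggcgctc
GC content was 64.3% for this Prox1 window, 44.3% for Mmrn1 and 80.7% for Reln, with 25, 3 and 47 CpG dinucleotides. The Mmrn1 window starts from a RefSeq start inside the gene span of the deposited table. Windows of 6 of the 10 markers were matched, 7 windows in all, and each of the 7 held at least 1 CNGGAA match, as did 61.7% of all windows. ACAAT, a core that SOX factors can bind, searched on both strands, occurred in the windows of Emcn and Mmrn1, as in 31.0% of all windows. Besides Car4, the printed Prox1 window held a TATAAA match.

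Levels of different genes were compared per kilobase of exon. Plvap, at 18.9 ± 9.52 CPM per kilobase, and Car4, at 18.7 ± 6.09, led the 10 markers and ranked 1328 and 1353 among 21839 nuclear protein-coding genes. Lyve1 followed at 9.79 ± 5.07, Mmrn1 at 5.62 ± 2.73 and Gpihbp1 at 5.51 ± 2.74. Apln had 2.10 ± 0.779, Emcn 1.17 ± 0.691, Prox1 1.0 ± 0.385, Aplnr 0.956 ± 0.627 and Reln 0.857 ± 0.363 CPM per kilobase (SD, n = 3 for each). Of the 9 pairs of neighbours in this order, Gpihbp1 and Apln were the 1 pair whose ranges over the libraries did not overlap. Lyve1 exceeded Mmrn1 within each of the 3 libraries, by 1.73 ± 0.12 times, although their ranges overlapped. Car4 exceeded Plvap in 2 of 3 libraries. Reln, which had 20.4 ± 8.61 CPM before division by its 23738 bases of exon, moved to the last place per kilobase.

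**Figure D2:**
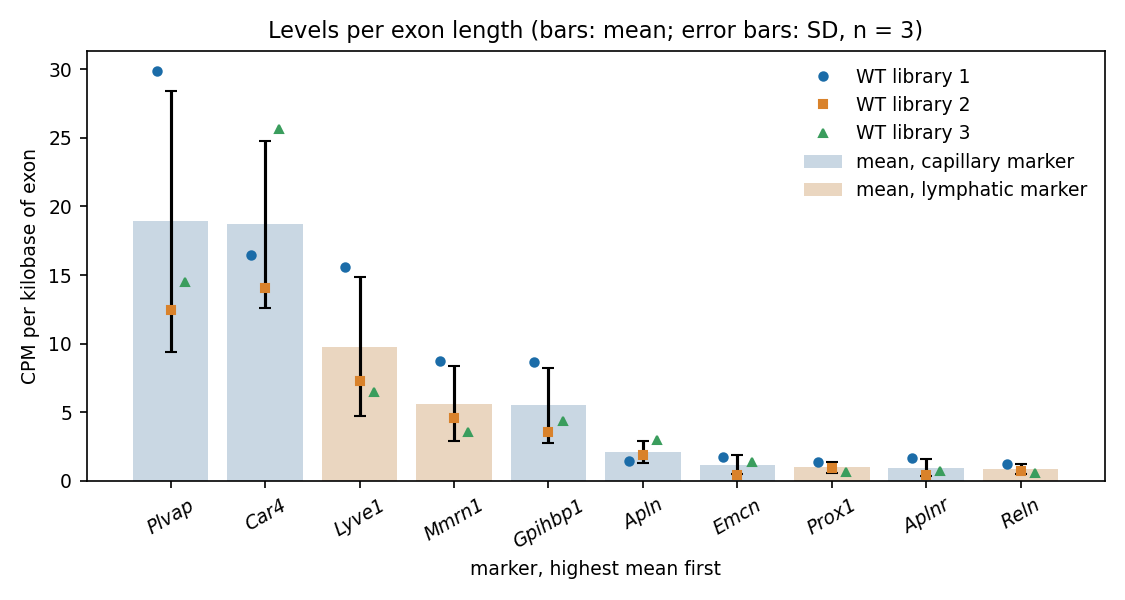
CPM per kilobase of exon for each marker, highest mean first; bars show the mean and error bars the SD of 3 libraries, and points show each library. Plvap and Car4 stood at 18.9 and 18.7, while Emcn, Prox1, Aplnr and Reln lay between 0.857 and 1.17 with overlapping ranges.

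As groups, the capillary and the lymphatic markers could not be placed above each other. The median over capillary markers was 3.50 ± 0.44 and that over lymphatic markers 4.56 ± 0.61 log2(CPM + 1), beside 2.52 ± 0.06 over all genes tested. Capillary minus lymphatic was -1.06 ± 0.36 in this unit, which does not correct for the longer lymphatic genes. Per kilobase of exon the medians were 2.14 ± 0.25 and 1.82 ± 0.42 log2(CPM per kilobase + 1), with a difference of 0.33 ± 0.36, within its SD of 0.

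The pan-endothelial genes themselves differed between libraries, and all 12 of the list, Emcn included, were highest in library 1 with each of the 4 scalings. The markers were therefore also expressed as a percentage of the summed CPM of the 11 genes without Emcn, a measure chosen after the values were seen. Car4 was 4.10%, 6.21% and 9.23% of that sum in libraries 1, 2 and 3, and Apln 0.571%, 1.36% and 1.70%. Aplnr, Gpihbp1 and Plvap together were 11.1%, 7.97% and 7.82%, and the 4 lymphatic markers together 17.6%, 16.3% and 10.9%. Relative to the pan-endothelial sum, library 3 thus held 2.34 times the pair Car4 and Apln of library 1, which is mostly Car4. It held 0.704 times the 3 general capillary markers and 0.621 times the 4 lymphatic markers of library 1. Other genes of these kinds were not set against this sum. These ratios depend on the weights in the sum, which Pecam1 and Cdh5 lead. The log2 CPM ratio of library 3 over library 1 was -0.231 for Pecam1 and -0.614 for Cdh5. Over the other genes of the sum it ran from -0.114 for Erg to -1.77 for Sox18, beside -1.04 for Plvap and -0.994 for Gpihbp1. Prox1 alone was highest in library 2 on this scale, at 1.5%, 1.77% and 0.999%, and Emcn was highest in library 3, at 1.19%, 0.489% and 1.36%.

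**Figure D3:**
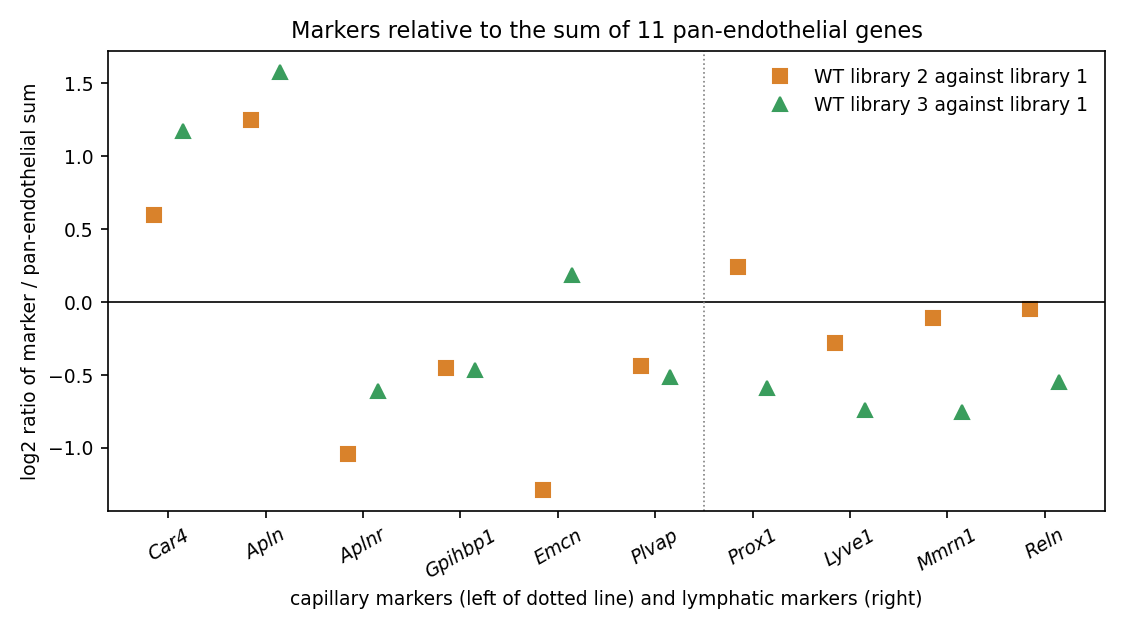
Log2 ratio of each marker's share of the pan-endothelial sum (11 genes, led by Pecam1 and Cdh5), in WT libraries 2 and 3 against library 1. In library 3, Car4 and Apln lay above 0 at 1.17 and 1.58, Emcn was at 0.18, and the other 7 markers lay below 0.

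Further genes of each endothelial kind were taken from lists of known markers. In these lists and the pathway lists after them, the number of genes that varied between libraries is to be read against the 70.0% called over all genes tested, and no list is set apart by that number. Among 10 other aerocyte genes, 9 varied between libraries past the threshold. Of these, 6 were highest in library 1 and 2 in library 3 with TMM scaling, against 4 and 4 with library totals. Ednrb, the endothelin receptor, had 25.3, 25.9 and 38.5 CPM in libraries 1, 2 and 3, and Tbx2, a T-box factor, 29.5, 31.7 and 44.1 CPM; these were chosen after their values were seen, and both were highest in library 3. Kdr, the main VEGF receptor, had 110.0, 73.0 and 113 CPM, and Prx, periaxin, 58.6, 31.1 and 63.4 CPM. Those 2 were low in library 2 and near each other in libraries 1 and 3. Rprml was lowest, at 0.495 ± 0.125 CPM. On log2(CPM + 1), library 3 minus library 1 had a median of -0.07 over the 10, with 5 above 0, beside a median of 0.13 over all genes tested. With TMM scaling the all-gene median was -0.0012 and that of the list -0.18, with 3 of 10 above 0.

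Among 10 other general capillary genes, 8 varied past the threshold, and 7 of these were highest in library 1. Ptprb, the vascular endothelial phosphatase, had 207, 60.3 and 104 CPM in libraries 1, 2 and 3, and the guidance ligand Sema3c 118, 69.4 and 86.4 CPM. Both had the order of Gpihbp1 and Plvap. Cd300lg was lowest of this list at 1.34 ± 0.213 CPM. Library 3 minus library 1 had a median of -0.80, with 2 of 10 above 0, and -0.96 with 1 of 10 above 0 under TMM. Of 10 artery genes, 9 passed, of which 7 were highest in library 1 with TMM scaling and 6 with library totals. Library 3 minus library 1 had a median of -0.39 over this list, and -0.54 under TMM. It was led by Efnb2, an ephrin ligand, at 54.2 ± 14.6 CPM and the chemokine Cxcl12 at 22.9 ± 5.93 CPM, with Dkk2 lowest at 0.468 ± 0.411 CPM. Of 8 vein genes, 7 were tested and 4 passed, 2 of them highest in library 1 and 2 in library 2. Nr2f2, a nuclear receptor that sets venous identity, had 24.9 ± 3.17 CPM, von Willebrand factor, Vwf, 24.6 ± 12.8 CPM, and Ackr1 a single count.

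Of 10 other lymphatic genes, 9 passed, of which 8 were highest in library 1 with TMM scaling and 6 with library totals. Flt4, the receptor of VEGF-C, had 51.6, 22.7 and 16.8 CPM in libraries 1, 2 and 3, and Ccl21a, the chemokine that draws dendritic cells and T cells, 139, 83.9 and 61.3 CPM. Both had the library order of the 4 lymphatic markers, but 71.6% of the 50-base words of Ccl21a occur in other genes and its level is uncertain. Thy1, which T cells also express, was highest at 165 ± 34.9 CPM, and the forkhead factor Foxc2 lowest at 0.886 ± 0.511 CPM. Pdpn, podoplanin, which alveolar epithelium also expresses, had 6.35, 6.76 and 6.16 CPM and did not pass the test (adjusted p = 0.408). The list's median of library 3 minus library 1 was -0.67, and -0.79 under TMM.

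**Figure D4:**
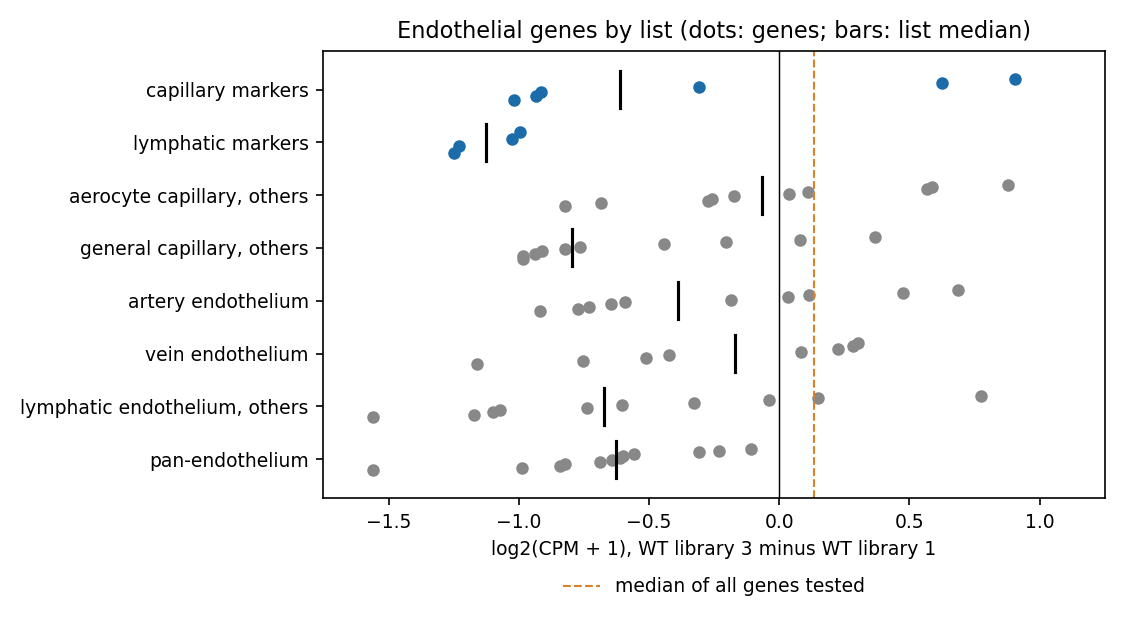
Log2(CPM + 1) in WT library 3 minus WT library 1 for the genes of each endothelial list (dots; capillary and lymphatic markers in blue) with the list medians (bars) and the median of all genes tested (dashed line). All 4 lymphatic markers and all 12 pan-endothelial genes lay below 0, and the other aerocyte genes lay around it with a median of -0.07.

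Genes that act with the markers were also read. Apela, a further ligand of the apelin receptor, had no count, which allows up to 0.178 CPM in the shallowest library. Lpl, the lipase that Gpihbp1 carries, had 9.39 ± 1.52 CPM and did not differ between libraries past the threshold (adjusted p = 0.228). The fatty acid receptor Cd36 had 137, 61.0 and 105 CPM in libraries 1, 2 and 3, and the caveolar protein Cav1 72.7, 39.1 and 50.2 CPM; in this list 5 of 6 genes tested passed. Of 10 genes of lymphatic growth, 10 passed, against 70.0% of all genes, and 6 of them were highest in library 1 with TMM scaling and 4 with library totals. The growth factor Vegfd, chosen after its values were seen, was highest in library 3, at 2.43, 6.05 and 7.11 CPM in libraries 1, 2 and 3, whereas its receptor Flt4 was lowest there. Integrin alpha 9, Itga9, had 25.6 ± 3.41 CPM. For reelin, the receptor Vldlr had 8.09 ± 3.26 CPM and Lrp8 5.33 ± 0.821 CPM, while Dab1, the adaptor through which they signal in neurons, had 0.185 ± 0.225 CPM.

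With the rule of likeness used here, the smallest distance between centred log2 levels over 3 libraries, the genes nearest to the summed capillary markers among 44 endothelial genes were Cyp4b1 at a distance of 0.11, Sema3c at 0.21 and Robo4 at 0.22. Nearest to the summed lymphatic markers were Ccl21a at 0.16, Vwf at 0.20 and Flt4 at 0.25. With 3 libraries many genes share a profile, and these are descriptions.

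Some markers are also known from cells other than endothelium. Lyve1 is expressed by a subset of interstitial macrophages. Of 10 genes of such macrophages, 8 had a mean CPM of at least 1, and their sum was 649, 177 and 260 CPM in libraries 1, 2 and 3. Most of it came from Cbr2, which club cells also express, at 249 ± 195 CPM, and from Csf1r, the receptor of macrophage growth factor, at 53.5 ± 38.0 CPM. Of the 9 genes tested 6 passed, 5 of them highest in library 1 and 1, the complement gene C1qa, highest in library 3. The narrower markers did not share 1 order. F13a1, a transglutaminase of macrophages, had 8.41, 3.60 and 3.14 CPM in libraries 1, 2 and 3, the order of Lyve1 (adjusted p = 1.6e-15). C1qa had 2.17, 3.16 and 4.50 CPM, whereas C1qb, a further complement gene, had 6.19, 4.52 and 4.74 CPM and was highest in library 1 (adjusted p = 0.0156). Csf1r had 96.4, 23.8 and 40.4 CPM, also highest in library 1. The mannose receptor Mrc1, at 14.0, 14.0 and 14.6 CPM, and Cd163, at 3.07, 2.61 and 2.61 CPM, did not pass the test (adjusted p = 0.715 and 0.379), and Folr2 had 0, 3 and 1 counts. Stab1, a scavenger receptor of macrophages and lymphatic endothelium, had 47.3, 18.9 and 19.1 CPM, with library 1 high as for Lyve1. The part of macrophages in the level of Lyve1 was not tested.

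Mmrn1 is made by platelets, and Prox1 by heart muscle. Of 8 platelet genes, 1 reached a mean of 1 CPM, Itga2b at 3.38 ± 0.943 CPM, and the sum of the 8 was 3.86, 3.60 and 7.52 CPM in libraries 1, 2 and 3. Itga2b itself had 2.65, 3.05 and 4.44 CPM and did not pass the test (adjusted p = 0.0847), and Gp1bb, with 3, 0 and 24 counts, is uncertain because 90.6% of its 50-base words occur in other genes. Treml1 had no count, and Ppbp, the platelet basic protein, had 1 count, in library 3. Of 7 heart muscle genes, 6 reached a mean of 1 CPM, led by the myosin Myh6 at 3.23 ± 2.73 CPM, and the sum of the 7 was 10.3, 9.81 and 15.0 CPM in libraries 1, 2 and 3. The genes that passed went different ways. Myh6 had 0.582, 3.05 and 6.04 CPM, with 20.2% of its 50-base words in other genes, and the troponin Tnnt2 had 0.900, 1.36 and 2.25 CPM. The myosin light chain Myl7 had 2.17, 1.09 and 0.770 CPM and cardiac actin, Actc1, 2.33, 1.20 and 0.830 CPM, in the library order of Prox1. The part of platelets in the level of Mmrn1 and of heart muscle in that of Prox1 was not tested.

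Markers of other lung cells differed between the same libraries. The sum over 8 alveolar epithelial genes, all with a mean of at least 1 CPM, was 2209, 492 and 592 CPM in libraries 1, 2 and 3, highest in library 1 as for the general capillary and lymphatic markers. It was led by the surfactant gene Sftpc at 627 ± 628 CPM. Of the 8 genes 7 passed, beside 70.0% of all genes tested, and 6 of these were highest in library 1. Rtkn2 went the other way, at 0.688, 3.05 and 7.11 CPM in libraries 1, 2 and 3. Abca3, at 44.9, 49.0 and 50.4 CPM, did not pass the test of homogeneity (adjusted p = 0.447). The sum over 8 fibroblast genes was 857, 1817 and 1817 CPM, led by gelsolin, Gsn, at 762 ± 254 CPM, and lowest in library 1. The sum over 8 lymphoid genes was 1054, 1391 and 1682 CPM, led by the immunoglobulin gene Ighm at 692 ± 173 CPM, and highest in library 3 as for Car4 and Apln. That order was carried mostly by B cell genes, mainly Ighm, with Cd79a at 114, 172 and 233 CPM. Also highest in library 3 were Nkg7, at 53.0, 57.7 and 81.2 CPM, and Klrd1, at 23.0, 26.9 and 50.6 CPM. The T cell genes Cd3e, at 153, 147 and 98.1 CPM, and Cd3d, at 50.4, 52.7 and 41.9 CPM, were lowest in library 3. That over 10 contractile genes was 196, 229 and 201 CPM. No gene of the fibroblast, alveolar or lymphoid lists was without counts. The part of these cell types in the differences between libraries was not tested.

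**Figure D5:**
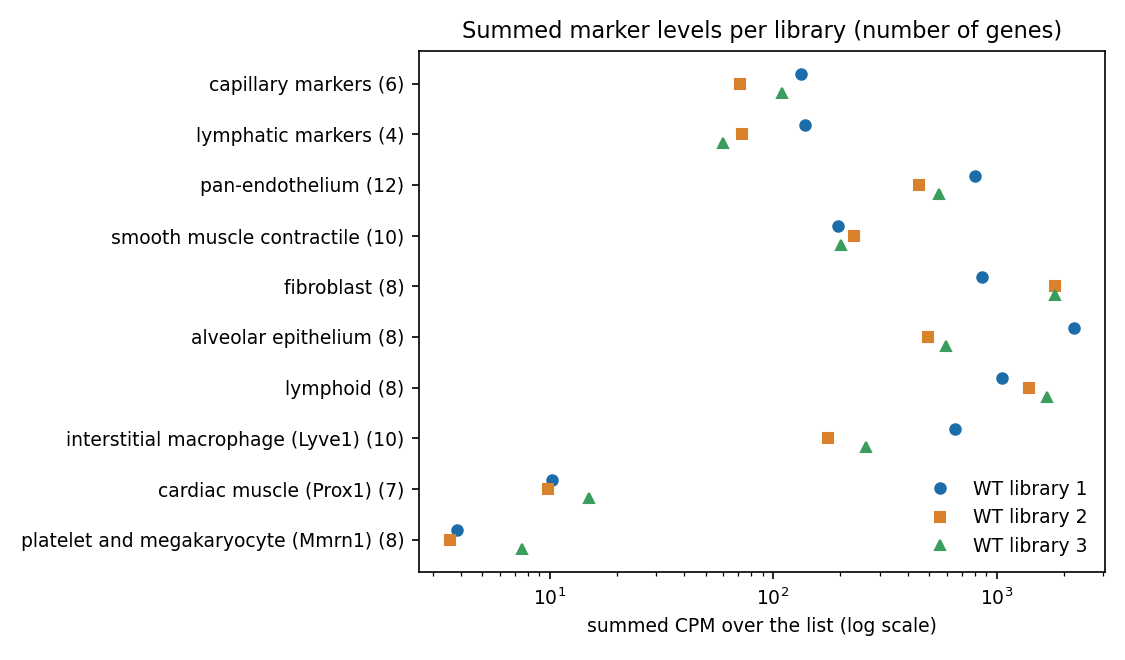
Summed CPM (log axis) of the capillary and lymphatic markers and of marker lists of other cell types in WT libraries 1, 2 and 3, with the number of genes in brackets. The capillary markers summed to 134, 71.4 and 110 CPM and the lymphatic markers to 139, 72.4 and 59.7 CPM, while the fibroblast sum was lowest in library 1.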

How the data were processed

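RNA was read in 3 WT libraries made, per the labels' protocols, with the miRNeasy micro kit and a stranded SMARTer total RNA kit. The authors' deposited table gives raw whole-number counts per gene; count columns CTRL 1 to 3 were matched by number to WT 1 to 3, the only group. Per the submitters' processing notes, Trimmomatic 0.38, STAR 2.6.1d, featureCounts 1.6.3 and DESeq2 1.18.1 were used, their order and settings unstated; no source used here says whether strand was used. The notes name the human builds hg38 and GRCh38, but gene IDs are mouse, and all 10 members have the coordinates of mouse GENCODE M21 (GRCm38), which also gave exon lengths (union of exons). At most 1.00% of the 50-base words of any member occurred in another gene.

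CPM used library totals; log2 values used a pseudocount of 1, which understates differences of low genes. For each gene, a chi-square test asked whether its counts varied between libraries beyond counting error, given sizes scaled by TMM (edgeR 4.0.16, R 4.3.3). Genes with at least 10 counts were tested, adjusted over 23317 genes at a threshold of 0.05. The test was tried on simulated counts with counting error and set changes in some genes. Those counts held no further variation between libraries, so the trial does not cover it. The test treats all variation beyond counting error alike. It compares libraries, not conditions. Intervals are 95% Wilson for levels and 95% exact (Clopper-Pearson) for ratios, and cover counting error only (scipy 1.17.1). Levels have no test, since an exact sign-flip permutation over 3 libraries cannot give a p below 0.25. The 10 members and the 18 gene lists were chosen with earlier results of these data known. By rule, the genes to be named were all members and, of each other list, the 2 highest genes and the lowest. The rule adds the 3 endothelial genes (mean CPM of at least 5) nearest in profile to each marker sum. Of the genes under this rule, the results leave out Mylk, Cald1, Pln, Nppa, Col3a1, Pi16 and Sftpa1. Besides Gtpbp3, which overlaps Plvap, genes outside this rule were chosen with values known. They are Acta2, Myh11, Erg, Sox18, Ednrb, Tbx2, Pdpn, Vegfd, Lpl and Lrp8. Further ones are Cd163, F13a1, C1qa, C1qb, Mrc1, Stab1, Ppbp, Tnnt2, Myl7, Actc1, Abca3, Cd3e, Cd3d and Nkg7. Alternatives were DESeq2 1.42.0 size factors, protein-coding totals, per-kilobase values, another pseudocount, other count minimums and leaving out each library. Start-site windows are from RefSeq (GRCm38.p6).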

Additional observations from a re-analysis of the deposited data

How the results depend on the processing

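The medians depended on gene length. Per kilobase of exon the capillary median was 2.14, the lymphatic median 1.82 and their difference 0.33, whereas it was -1.06 without length and -0.68 with the mean over members. The log2 ratio of Reln to Prox1, 1.17 in CPM, was -0.11 per kilobase. These changes follow from the construction, since Reln is the longest of the 10 genes, at 23738 bases of exon, and counts per kilobase also bring low genes nearer to the pseudocount. With TMM, DESeq2 and protein-coding library sizes, the mean levels of the 10 members and the 9 ratios moved by less than 1 SD. Without library 1 the mean of Aplnr was 2.24 CPM, against 3.54 with all libraries, and the log2 ratio of Apln to Aplnr was 1.42, against 0.82; the other member levels and ratios moved by less than 1.5 times without any 1 library. Without each library in turn, 8275 to 12273 genes were called, against 16333 with all libraries, and 7 to 10 members; the fewest were called without library 1, when Aplnr, Gpihbp1 and Plvap did not pass, and Apln did not pass without library 3. Without each library in turn the capillary median was 3.28 to 3.72, the lymphatic median 4.21 to 4.78 and their difference -1.26 to -0.94. Minimums of 1 and 30 counts and other library sizes left 10 members called. Depth limits Aplnr and Emcn most, with 31 and 40 counts in library 2. No paired analysis was possible because the samples form 1 group.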
